A study of Mus musculus with 6 samples.

Results

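The semaphorin, plexin, neuropilin, ephrin, Eph receptor, SLIT and ROBO genes code for cues that cells use to steer, and for the receptors of those cues. They were taken as the protein-coding rows of the deposited table whose symbol begins as one of these families does, which gave 55 genes of 18908 listed. Of these, 29 code for ligands and 26 for receptors, and 49 had enough counts to be tested. A further 5 genes of the families that GENCODE M21 annotates (Epha6, Ephb1, Plxna2, Sema5b and Slit3) have no row in the table used here and were not analysed.

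Messenger RNA was sequenced in 6 mouse libraries. The 3 VprBP-labelled libraries come from cells with the genotype label VprBP1 Knockdown, given an shRNA (a short hairpin RNA, used to knock down a gene) against VprBP. The 3 control-labelled libraries come from WT cells given a control shRNA. Both groups are labelled as bone marrow-derived macrophages (BMDM). VprBP is also called Dcaf1, and brings substrates to the CRL4 ubiquitin ligase. No label ties a library to its own animal or culture. The p-values therefore reflect the spread among these libraries alone, and that spread could be technical. The study's title concerns osteoclast differentiation, and a single comparison, between these labels, follows from its design.

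Semaphorins are secreted or membrane-bound ligands that signal through plexins, whose inner part switches off small GTPases of the Ras family and so loosens adhesion and the cytoskeleton. The secreted class 3 semaphorins mostly need a neuropilin as co-receptor. Ephrins sit on one cell and bind Eph receptor tyrosine kinases on its neighbour, and both cells can receive a signal. SLIT proteins are large secreted repellents read by ROBO receptors. The families were found in growing axons, steer neural crest cells, from which pigment cells and Schwann cells arise, and take part in the exchange between osteoclasts and osteoblasts in bone.

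Total counts ran from 17825340 to 18407356 in VprBP-labelled and from 16839445 to 21838875 in control-labelled libraries, and the guidance genes held 0.604% to 0.637% and 0.249% to 0.259% of them. Levels are given as CPM, on library sizes corrected by TMM factors. At 3 counts the level was 0.137 to 0.178 CPM on total counts, before TMM factors. This is the limit that a count of 0 leaves, and one of counting error alone. The targeted gene Dcaf1 stood at 36.0, 34.6 and 36.8 CPM in VprBP-labelled and 42.2, 43.5 and 40.7 CPM in control-labelled libraries, so that 84.9% of the control-labelled mean was left under the VprBP label. The difference was called (log2 difference -0.24, SE 0.07, edgeR adjusted p = 0.00625), but not with scaling by library size only (-0.12, edgeR adjusted p = 0.137). The groups did not overlap, which was also so for 77.2% of all tested genes. An exact two-sided permutation test gave 0.1, the smallest p possible with 3 libraries a group, so it could not reach 0.05. Every direction below is one between labels. Of 18 macrophage markers, 7 have a row, and Csf1r, Adgre1, Itgam and Spi1 have none. Of 5 tested, 3 (Mertk, Laptm5 and Lyz2) rose and 1 was not called, against 37.9% of all tested genes higher and 37.0% lower. Laptm5 and Lyz2 were not tested with the filter at a mean of 2 CPM. The remaining 1, Cd68, fell, to 1.01 ± 0.270 CPM in VprBP-labelled against 31.6 ± 1.2 CPM in control-labelled libraries (SD, n = 3 each). Cd68 made most of the control-labelled sum of the list, and Mertk (13.3 ± 0.696 and 5.35 ± 0.739 CPM) most of the VprBP-labelled one. The 7 summed to 20.4 to 21.4 CPM in VprBP-labelled and 37.3 to 40.8 CPM in control-labelled libraries, whereas 12 pigment cell markers summed to 19706 to 20222 and 21133 to 21513 CPM (6 rose, 4 fell and 1 was not called). The small rise of Tyrp1 (1.06-fold) was not called with upper quartile scaling, the filter at a mean of 2 CPM or the replicate block, or without VprBP replicate 2 or control replicate 2 or 3. The labelled cell type is thus not borne out by its defining markers in these libraries. Markers of other cells moved with the labels, and their counts stand against 37.9% of all tested genes higher and 37.0% lower. Of 12 Schwann and glial markers, 9 of 10 tested rose and 1, Egr2, fell, and the list summed to 1551 to 1647 and 179 to 196 CPM, with Mag at 0 in every control-labelled library. The call of Egr2 (edgeR adjusted p = 0.045) was lost with library size only, no filter, DESeq2 or the replicate block, and without VprBP replicate 1 or 3 or control replicate 2 or 3 (adjusted p = 0.0586 to 0.201). Of 10 fibroblast and stromal markers, 6 of 7 tested rose and 1, Dcn, fell, and the list summed to 402 to 452 and 51.7 to 52.7 CPM, with 3 of the 8 listed (Col3a1, Acta2 and Lum) at 0 in every control-labelled library. Of 10 neuronal markers, 3 have a row, with both tested ones, Tubb3 and Map2, higher, and a sum of 100.5 to 116 and 16.4 to 17.7 CPM. The 5 endothelial markers with a row summed to 7.56 to 10.1 and 3.94 to 4.21 CPM, with Vwf higher, Esam lower and Cdh5 at 0 in every control-labelled library. The 5 osteoclast markers with a row summed to 11.7 to 13.7 and 3.83 to 4.46 CPM, and both tested ones, Mmp9 and Nfatc1, rose. Ctsk (0.122 ± 0.167 CPM in VprBP-labelled and 0.917 ± 0.443 CPM in control-labelled libraries) and Oscar (0 and 0.261 ± 0.305 CPM) lay the other way, below the filter on low counts, and were called lower without that filter. Ctsk was also called lower when VprBP replicate 1, 2 or 3 or control replicate 3 was left out. The part of these cell markers in the results below was not tested. In bulk RNA, fewer cells of a type and less RNA per cell cannot be told apart.

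Most guidance genes stood higher under the VprBP label. Of the 49 tested, 40 rose, 5 fell and 4 were not called at an edgeR adjusted p below 0.05. Among all 14641 tested genes, 37.9% rose and 37.0% fell, 75.0% in all. The median log2 difference was 1.38 for the 49 guidance genes and -0.01 for all tested genes. Changes by at least 1 on the log2 scale were seen upwards in 29 guidance genes (background 19.4%) and downwards in 4 (background 14.2%). By at least 3, 11 were higher (background 4.26%), and falls reached -1.66 (Efnb3) and -1.45 (Epha2). The 5 that fell were Efnb3, Epha2, Sema4a, Epha4 and Sema3b, and the 4 not called were Sema6a, Efna1, Efnb2 and Slit1. The library groups did not overlap for 46 of the 49 (background 77.2%). Receptors and ligands both leaned upwards, with 20 of 22 tested receptors and 20 of 27 tested ligands higher.

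**Figure D1:**
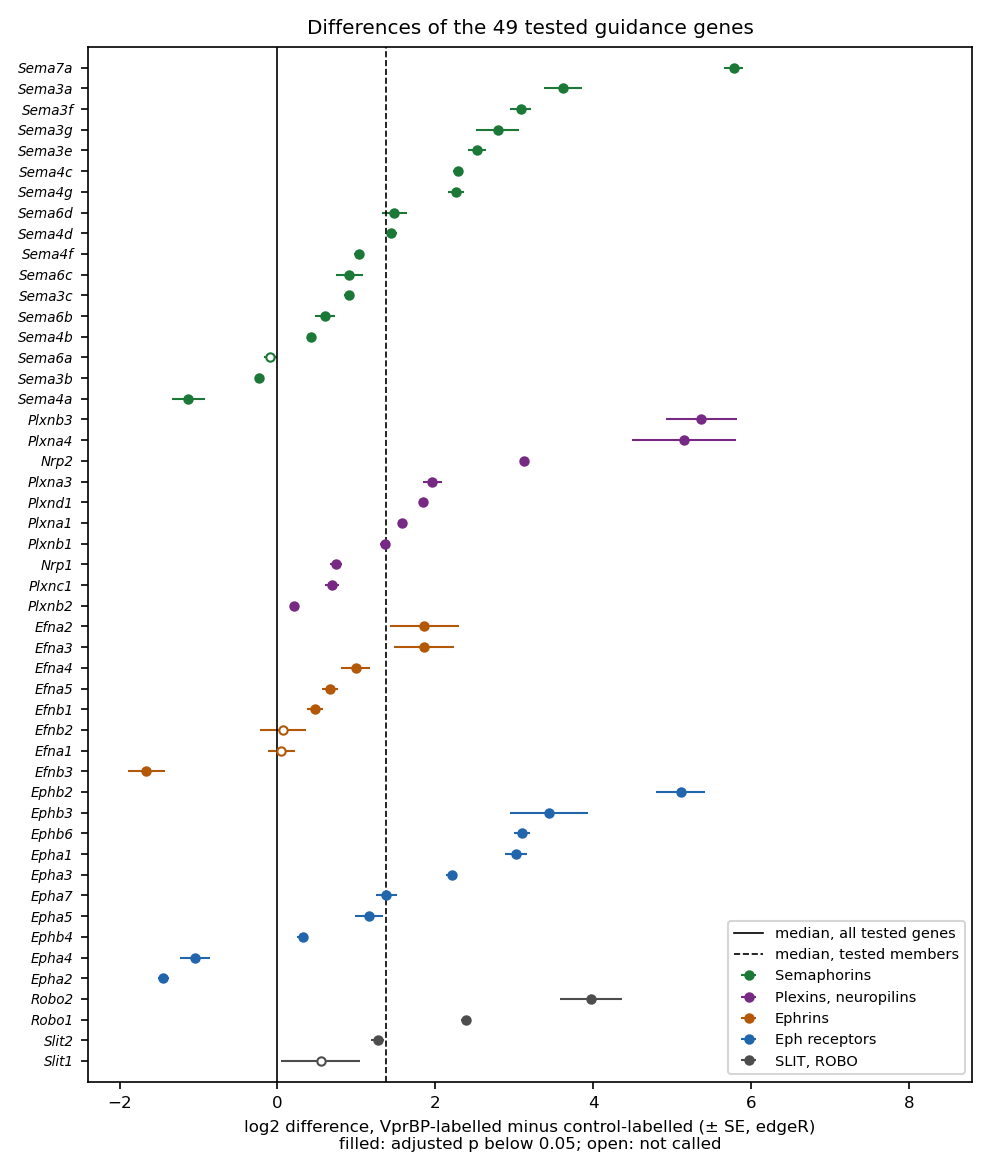
log2 difference, VprBP-labelled minus control-labelled, of each of the 49 tested guidance genes with its SE (x axis), grouped by family (colour); filled symbols were called at an edgeR adjusted p below 0.05. Most symbols lie right of the solid line at the median of all tested genes (-0.01), and the dashed line marks the median of the guidance genes (1.38).

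The stretches before the start sites of 4 members are printed here because these genes are well measured and, with Sema3a and Sema4a, show the largest called changes in either direction among members that average at least 5 CPM. They are the bases before the start in RefSeq on GRCm38.p6, 5′ to 3′ on the gene's strand, 218 for Nrp2, whose GENCODE start lies earlier, and 250 for the others. Capitals mark GC boxes (GGGCGG) and CCAAT boxes (CCAAT), each on either strand. Sema7a (chr9:57939862-57940111, plus strand) and Nrp2 (chr1:62703067-62703284, plus strand) were higher in the VprBP-labelled libraries, and Epha2 (chr4:141300971-141301220, plus strand) and Epha4 (chr1:77515089-77515338, minus strand) lower.
Sema7a: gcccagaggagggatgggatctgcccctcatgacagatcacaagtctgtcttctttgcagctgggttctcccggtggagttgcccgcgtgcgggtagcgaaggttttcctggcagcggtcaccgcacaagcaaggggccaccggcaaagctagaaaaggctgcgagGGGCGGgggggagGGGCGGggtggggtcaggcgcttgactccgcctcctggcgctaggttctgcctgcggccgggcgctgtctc
Nrp2: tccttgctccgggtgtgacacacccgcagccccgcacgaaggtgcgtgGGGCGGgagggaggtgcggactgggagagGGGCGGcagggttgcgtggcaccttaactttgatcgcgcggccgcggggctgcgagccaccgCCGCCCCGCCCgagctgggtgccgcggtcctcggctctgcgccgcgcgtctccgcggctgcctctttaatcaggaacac
Epha2: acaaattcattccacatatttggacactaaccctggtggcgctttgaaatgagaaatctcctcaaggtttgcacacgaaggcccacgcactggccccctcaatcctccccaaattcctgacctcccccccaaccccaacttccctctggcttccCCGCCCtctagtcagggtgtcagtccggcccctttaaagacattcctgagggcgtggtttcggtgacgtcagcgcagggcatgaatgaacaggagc
Epha4: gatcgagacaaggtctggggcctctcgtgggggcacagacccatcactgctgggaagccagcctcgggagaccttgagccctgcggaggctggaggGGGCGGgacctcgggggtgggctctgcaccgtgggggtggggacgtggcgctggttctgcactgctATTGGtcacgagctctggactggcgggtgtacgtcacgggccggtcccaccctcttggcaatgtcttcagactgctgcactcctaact
The Nrp2 stretch holds 4 GC boxes, 2 of which share bases, and the Sema7a stretch 2. Epha2 and Epha4 hold 1 each, and Epha4 has a CCAAT box besides. GC boxes stand in 46 of the 64 windows of 250 bases that the RefSeq table gives for 48 of the 55 guidance genes (71.9%), and in 32.7% of the 32851 windows of all genes. The windows of all genes were not limited to protein-coding or tested genes, and a gene with several starts counts more than once. CCAAT boxes stand in 28.1% and 33.8%. Other motifs searched on both strands are in none of the 4 stretches. The TATA box TATAAA is in 3.12% of the guidance gene windows and 12.4% of all windows, and the AP-1 motif TGANTCA in 4.69% and 6.75%. Among E-boxes, the M-box core CATGTG is in 4.69% and 12.3%, and the palindrome CACGTG in 6.25% and 6.02%. A match describes letters in a window and is no evidence of binding. For Sema3a the RefSeq start lies 271.37 kb inside the GENCODE gene, and Sema4a has 4 starts, so neither is printed.

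Among the secreted class 3 semaphorins, 5 of 6 tested genes rose and 1 fell in the VprBP-labelled libraries (background 37.9% higher and 37.0% lower). The values of each gene are given for libraries 1, 2 and 3 of a group in that order. Sema3a, which repels axons through Nrp1 and in mouse bone restrains osteoclast formation, stood at 9.22, 9.45 and 11.7 CPM in VprBP-labelled and 0.861, 0.619 and 0.955 CPM in control-labelled libraries. It rose 12.3-fold (log2 difference 3.62, SE 0.24, edgeR adjusted p = 1.94e-10). Sema3f, a ligand of Nrp2, had 76.5, 62.3 and 75.8 CPM in VprBP-labelled and 7.37, 7.06 and 11.1 CPM in control-labelled libraries, and rose 8.44-fold (log2 difference 3.08, SE 0.13, edgeR adjusted p = 2.16e-13). Every VprBP-labelled library lay far above every control-labelled one for both genes (background 77.2% without overlap). Sema3e binds Plxnd1 without a neuropilin. It was measured at 40.4, 45.5 and 43.2 CPM in VprBP-labelled and 8.47, 6.32 and 7.34 CPM in control-labelled libraries, a rise of 5.78-fold (log2 difference 2.53, SE 0.11, edgeR adjusted p = 3.43e-13). Sema3g, another Nrp2 ligand, had 12, 10.4 and 8.45 CPM in VprBP-labelled and 0.766, 1.98 and 1.79 CPM in control-labelled libraries. Its rise was 6.94-fold (log2 difference 2.79, SE 0.27, edgeR adjusted p = 3.24e-08), on 78 counts over the control-labelled libraries. Sema3c, which acts in the growing heart and vessels, was at 95.6, 105 and 103 CPM in VprBP-labelled and 54.5, 54.2 and 54.0 CPM in control-labelled libraries and rose 1.87-fold (log2 difference 0.90, SE 0.06, edgeR adjusted p = 1.16e-10). The control-labelled libraries were almost level for Sema3c and lay below all 3 VprBP-labelled ones (background 77.2% without overlap).

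Sema3b, whose human gene is a candidate tumour suppressor, was the only class 3 member that fell. It stood at 315, 296 and 295 CPM in VprBP-labelled and 342, 359 and 358 CPM in control-labelled libraries, and fell 1.17-fold (log2 difference -0.23, SE 0.04, edgeR adjusted p = 0.000157). The gap was small but the groups did not overlap (background 77.2%). It shrank to -0.11 where library size alone was used for scaling (edgeR adjusted p = 0.0328). Sema3d had too few counts to be tested, 30 over the VprBP-labelled and 2 over the control-labelled libraries, which puts the ratio of scaled counts at 14.3 (3.64 to 124, 95% counting interval).

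**Figure D2:**
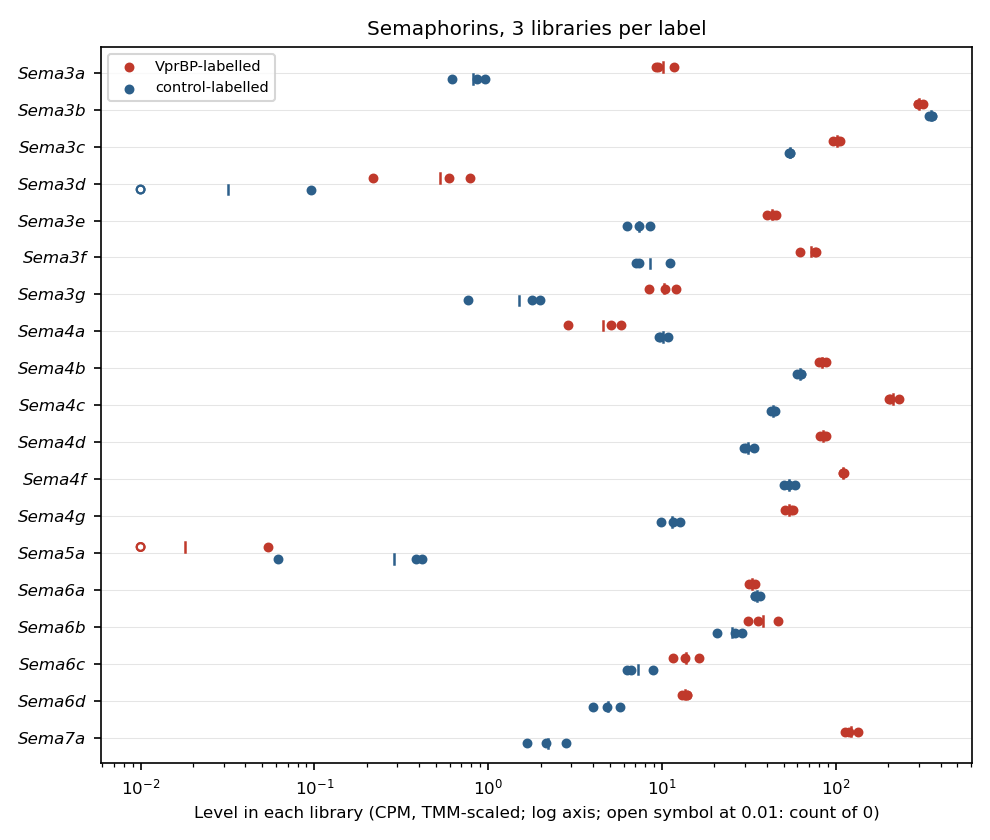
Level of each of the 19 listed semaphorins in each library (x axis, CPM on a log axis; points are libraries, ticks are group means, open symbols counts of 0), VprBP-labelled above control-labelled. The groups of Sema7a lie apart by a mean of 122 against 2.21 CPM, whereas Sema3b and Sema6a lie nearly level.

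Sema7a stood apart from the other semaphorins. It (ENSMUSG00000038264.8, GRCm38 chromosome 9, 57940112 to 57962865, plus strand) codes for a ligand that is held in the membrane by a lipid anchor and signals through Plxnc1 and integrin β1. Its levels were 134, 119 and 113 CPM in VprBP-labelled and 2.15, 1.67 and 2.81 CPM in control-labelled libraries. It rose 54.9-fold (log2 difference 5.78, SE 0.12, edgeR adjusted p = 1.39e-17). The control-labelled libraries held 119 counts of it in all and the VprBP-labelled ones 6841.

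Of the 6 membrane-bound class 4 semaphorins, 5 rose and 1 fell (background 37.9% higher and 37.0% lower). Sema4c, a ligand of Plxnb2, had 229.6, 202 and 206 CPM in VprBP-labelled and 42.2, 44.5 and 43.9 CPM in control-labelled libraries. It rose 4.88-fold (log2 difference 2.29, SE 0.06, edgeR adjusted p = 3.88e-16). It shares 7.3% of its exonic bases with an antisense transcript, D430040D24Rik, and with no strand setting given the reads of such pairs cannot be told apart. Sema4g, which also binds Plxnb2, stood at 56.3, 51.0 and 54.9 CPM in VprBP-labelled and 9.81, 12.6 and 11.6 CPM in control-labelled libraries and rose 4.79-fold (log2 difference 2.26, SE 0.10, edgeR adjusted p = 2.65e-13). Sema4d is the ligand of Plxnb1 through which mouse osteoclasts restrain bone formation. It had 85.4, 87.2 and 81.3 CPM in VprBP-labelled and 33.9, 30.2 and 29.4 CPM in control-labelled libraries, a rise of 2.71-fold (log2 difference 1.44, SE 0.07, edgeR adjusted p = 1.91e-12). All 3 genes were higher in every VprBP-labelled library than in any control-labelled one (background 77.2% without overlap). Sema4f stood at 109.8, 111 and 110.1 CPM in VprBP-labelled and 50.3, 53.7 and 58.1 CPM in control-labelled libraries, with a rise of 2.04-fold (log2 difference 1.03, SE 0.06, edgeR adjusted p = 3.02e-11). Sema4b was at 88.1, 79.9 and 82.9 CPM in VprBP-labelled and 60.1, 62.9 and 63.2 CPM in control-labelled libraries and rose 1.35-fold (log2 difference 0.43, SE 0.06, edgeR adjusted p = 3.42e-06). Sema4a, which acts on T cells in the mouse, went the other way. It had 5.82, 2.86 and 5.11 CPM in VprBP-labelled and 10.8, 9.79 and 9.61 CPM in control-labelled libraries, and fell 2.19-fold (log2 difference -1.13, SE 0.21, edgeR adjusted p = 9.82e-05). VprBP-labelled library 2 was the lowest for Sema4a, and the groups did not overlap (background 77.2%).

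Class 6 semaphorins span the membrane and bind class A plexins. Of 4 genes, 3 rose (background 37.9%) and 1 was not called. Sema6d, which binds Plxna1, stood at 13.9, 13 and 14 CPM in VprBP-labelled and 5.74, 4.83 and 4.0 CPM in control-labelled libraries and rose 2.79-fold (log2 difference 1.48, SE 0.16, edgeR adjusted p = 1.3e-07). Sema6c had 16.3, 13.5 and 11.5 CPM in VprBP-labelled and 8.85, 6.26 and 6.63 CPM in control-labelled libraries, a rise of 1.89-fold (log2 difference 0.91, SE 0.17, edgeR adjusted p = 8.05e-05). Sema6b was at 46.7, 35.8 and 31.4 CPM in VprBP-labelled and 20.6, 28.8 and 26.1 CPM in control-labelled libraries. It rose 1.51-fold (log2 difference 0.60, SE 0.13, edgeR adjusted p = 0.000528), and its VprBP-labelled libraries were the most spread of the class. Sema6a, a ligand of Plxna4, had 32.9, 31.7 and 34.2 CPM in VprBP-labelled and 34.2, 34.4 and 36.4 CPM in control-labelled libraries. The difference was -0.09 (SE 0.08, edgeR adjusted p = 0.304) and was not called. Sema5a, the listed class 5 gene, had 1 count over the VprBP-labelled and 16 over the control-labelled libraries. Its scaled counts were 16.7 times lower (2.60 to 702, 95% counting interval), and it was not tested.

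The makeup of the semaphorins is described here, without a test, on levels per length of exon (CPM per kb). That length joins all annotated exons of a gene, whichever transcript was expressed, so different genes compare only roughly on this scale. Sums and shares are means ± SD over 3 libraries. The semaphorins summed to 253 ± 12.4 CPM per kb in VprBP-labelled and 135 ± 3.88 CPM per kb in control-labelled libraries. Sema3b was the most abundant in both groups. Its share of the summed level per kb was 25.0% ± 0.265 in VprBP-labelled and 54.8% ± 0.284 in control-labelled libraries. Sema4c took 18.3% ± 0.420 in VprBP-labelled and 7.02% ± 0.0747 in control-labelled libraries, and Sema7a 14.6% ± 0.653 in VprBP-labelled and 0.496% ± 0.123 in control-labelled libraries. Among the 19 genes Sema7a held rank 3 in VprBP-labelled and rank 14 in control-labelled libraries. The class 3 genes together made 98.9 ± 2.71 CPM per kb in VprBP-labelled and 84.3 ± 2.17 CPM per kb in control-labelled libraries.

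**Figure D3:**
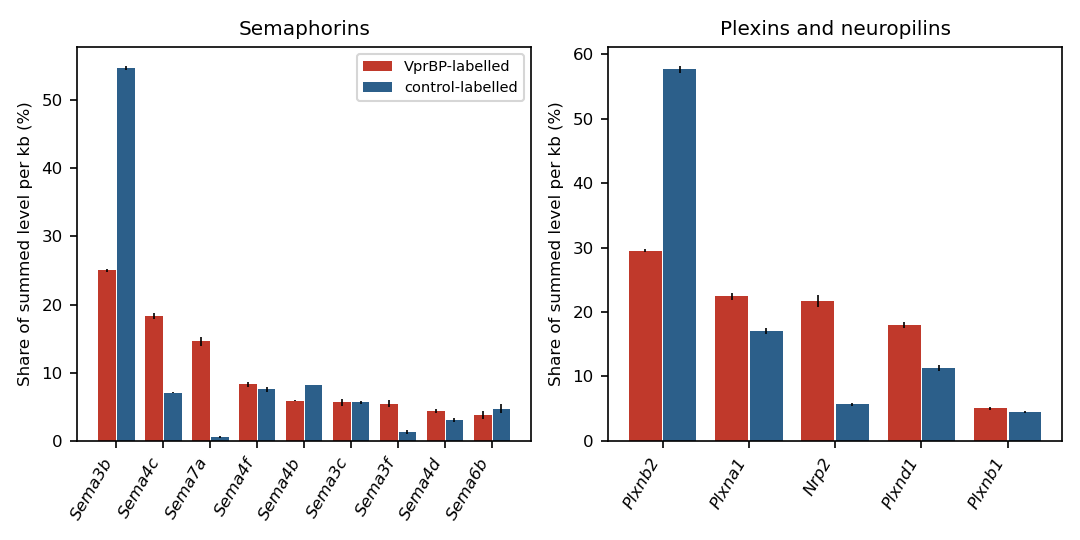
Share of each gene in the summed level per kb of the semaphorins (left) and of the plexins and neuropilins (right), in percent (y axis; bars are means and error bars SDs over 3 libraries; genes at 3% or more in either group). Sema3b and Plxnb2 lead both groups, with 25.0% and 29.5% in VprBP-labelled and 54.8% and 57.7% in control-labelled libraries.

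All 10 listed plexin and neuropilin genes were tested, and all 10 rose under the VprBP label (background 37.9% higher). Nrp2 (ENSMUSG00000025969.15, GRCm38 chromosome 1, 62703285 to 62818695, plus strand), the co-receptor of Sema3f and of the lymphatic growth factor VEGF-C, stood at 1106, 1128 and 1116 CPM in VprBP-labelled and 129, 131 and 125 CPM in control-labelled libraries. It rose 8.71-fold (log2 difference 3.12, SE 0.04, edgeR adjusted p = 8.05e-20). The libraries of a group differed by little and the groups lay far apart. Nrp1, the co-receptor of Sema3a and of VEGF-A, had 37.8, 39.6 and 37.4 CPM in VprBP-labelled and 21.1, 23.6 and 24.1 CPM in control-labelled libraries, a rise of 1.67-fold (log2 difference 0.74, SE 0.08, edgeR adjusted p = 2.22e-07). Its level per kb was 3.91 ± 0.121 CPM per kb in VprBP-labelled and 2.34 ± 0.163 CPM per kb in control-labelled libraries, and that of Nrp2 94.3 ± 0.938 CPM per kb in VprBP-labelled and 10.8 ± 0.260 CPM per kb in control-labelled libraries.

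Plxna1, the class A plexin that serves class 3 semaphorins and Sema6d and in mouse osteoclast precursors pairs with Trem2, was measured at 935, 880.3 and 837 CPM in VprBP-labelled and 289, 292 and 309 CPM in control-labelled libraries. It rose 2.98-fold (log2 difference 1.58, SE 0.05, edgeR adjusted p = 1.84e-15). An antisense transcript, Gm26811, covers 10.7% of its exonic bases. Trem2 has no row in these data. Plxnd1, the receptor of Sema3e, stood at 607, 561 and 541 CPM in VprBP-labelled and 149, 161 and 167 CPM in control-labelled libraries and rose 3.58-fold (log2 difference 1.84, SE 0.05, edgeR adjusted p = 1.23e-15). Plxnb1, the receptor of Sema4d, had 223, 197 and 209 CPM in VprBP-labelled and 78.1, 84.7 and 82.5 CPM in control-labelled libraries, a rise of 2.57-fold (log2 difference 1.36, SE 0.06, edgeR adjusted p = 1.88e-13). For these 3 well-measured receptors every VprBP-labelled library was above every control-labelled one (background 77.2% without overlap). Plxna3 stood at 26.8, 23.6 and 26.4 CPM in VprBP-labelled and 6.6, 5.70 and 7.40 CPM in control-labelled libraries and rose 3.89-fold (log2 difference 1.96, SE 0.12, edgeR adjusted p = 8.14e-11). Plxnc1, the receptor of Sema7a, had 59.5, 54.7 and 56.9 CPM in VprBP-labelled and 36.5, 40.4 and 29.3 CPM in control-labelled libraries. It rose 1.61-fold (log2 difference 0.69, SE 0.09, edgeR adjusted p = 2.19e-06). Plxnb2, the most abundant plexin and a receptor of Sema4c and Sema4g, differed the least of the family. It was at 1027, 973 and 970.2 CPM in VprBP-labelled and 849, 859 and 857 CPM in control-labelled libraries, a rise of 1.16-fold (log2 difference 0.21, SE 0.04, edgeR adjusted p = 6.32e-05).

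Of the class A and B plexins, 2 were close to the counting floor in the control-labelled libraries. Plxnb3, a plexin of glia and neurons, had 7.01, 6.53 and 5.63 CPM in VprBP-labelled and 0.287, 0 and 0.119 CPM in control-labelled libraries, that is 359 counts over the VprBP-labelled and 8 over the control-labelled libraries. On the log2 scale the fit put it 5.37 (SE 0.45, edgeR adjusted p = 4.43e-09) higher. The difference was 6.56 without control replicate 1 and 4.87 without control replicate 2. Plxna4, a receptor of Sema6a and, with a neuropilin, of Sema3a, had 2.16, 1.73 and 2.76 CPM in VprBP-labelled and 0.0479, 0 and 0.119 CPM in control-labelled libraries. Its 125 counts over the VprBP-labelled and 3 over the control-labelled libraries put the ratio of scaled counts at 39.9 (13.3 to 196, 95% counting interval). The fit put it 5.15 (SE 0.66, edgeR adjusted p = 1.26e-06) higher on the log2 scale. The difference was 6.04 without control replicate 3 and 4.67 without control replicate 2. The direction of both genes was clear from every library, and the size of their change was not.

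**Figure D4:**
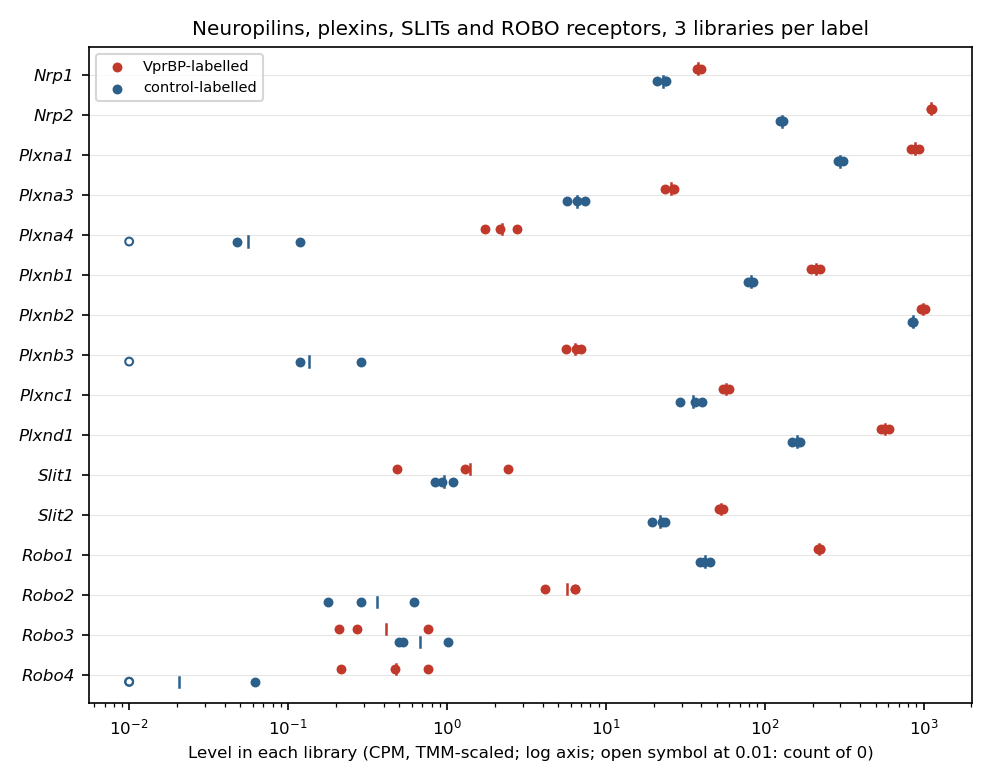
Level of each listed neuropilin, plexin, SLIT and ROBO gene in each library (x axis, CPM on a log axis; points are libraries, ticks are group means, open symbols counts of 0), VprBP-labelled above control-labelled. The groups of all 10 neuropilins and plexins lie apart without overlap (background 77.2%), and those of Plxnb2 (1.16-fold) lie closest.

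Per kb, the plexins and neuropilins summed to 435 ± 14.8 CPM per kb in VprBP-labelled and 192 ± 2.82 CPM per kb in control-labelled libraries. Plxnb2 took 29.5% ± 0.215 in VprBP-labelled and 57.7% ± 0.535 in control-labelled libraries. Nrp2 took 21.7% ± 0.876 in VprBP-labelled and 5.64% ± 0.183 in control-labelled libraries, Plxna1 22.4% ± 0.534 in VprBP-labelled and 17.1% ± 0.468 in control-labelled libraries, and Plxnd1 17.9% ± 0.454 in VprBP-labelled and 11.3% ± 0.491 in control-labelled libraries. By level per kb, Plxnb2 thus made up most of the plexins and neuropilins of the control-labelled libraries, and in the VprBP-labelled libraries Plxnb2, Plxna1, Nrp2 and Plxnd1 lay closer together.

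Of the 8 ephrin genes, 5 rose, 1 fell and 2 were not called (background 37.9% higher and 37.0% lower). The ephrin-A genes code for lipid-anchored ligands that mostly bind EphA receptors. Efna5 stood at 22.4, 25.0 and 25.3 CPM in VprBP-labelled and 14.2, 16 and 15.6 CPM in control-labelled libraries and rose 1.59-fold (log2 difference 0.67, SE 0.10, edgeR adjusted p = 1e-05). Efna4 had 13.5, 11.5 and 9.23 CPM in VprBP-labelled and 5.02, 5.39 and 6.87 CPM in control-labelled libraries, a rise of 1.98-fold (log2 difference 0.99, SE 0.18, edgeR adjusted p = 6.84e-05). Efna1, the usual ligand of Epha2, had 8.30, 6.37 and 9.39 CPM in VprBP-labelled and 8.18, 7.99 and 7.10 CPM in control-labelled libraries. The groups overlapped, and the difference was 0.05 (SE 0.17, edgeR adjusted p = 0.811). Efna2 and Efna3 were scarcer, with means of 2.08 ± 0.0793 and 0.583 ± 0.267 CPM and of 2.62 ± 0.160 and 0.718 ± 0.158 CPM in VprBP-labelled and control-labelled libraries (SD, n = 3 each), and rose 3.62-fold and 3.63-fold. Efna4 and Efna3 share 10.5% and 14.1% of their exonic bases with antisense transcripts.

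The ephrin-B genes code for ligands that span the membrane. Efnb1 stood at 27.3, 27.3 and 28.2 CPM in VprBP-labelled and 17.9, 19.2 and 22.4 CPM in control-labelled libraries and rose 1.40-fold (log2 difference 0.48, SE 0.10, edgeR adjusted p = 0.000237). Efnb3 averaged 2.30 ± 0.312 CPM in VprBP-labelled and 7.25 ± 1.95 CPM in control-labelled libraries (SD, n = 3 each), and fell 3.17-fold (log2 difference -1.66, SE 0.24, edgeR adjusted p = 6.14e-06). Control library 1 was the highest for Efnb3, and without it the difference was -1.43. Efnb2, the ligand of Ephb4, which mouse osteoclasts display to osteoblasts, averaged 3.87 ± 1.02 CPM in VprBP-labelled and 3.66 ± 1.35 CPM in control-labelled libraries. Its log2 difference was 0.07 (SE 0.29, edgeR adjusted p = 0.844), not called, and the groups overlapped.

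All 10 tested Eph receptor genes were called (background 75.0%), with 8 higher under the VprBP label (background 37.9%) and 2 lower (background 37.0%). Among the EphA receptors, Epha3 stood at 98.0, 102 and 91.0 CPM in VprBP-labelled and 21.2, 21.1 and 20.4 CPM in control-labelled libraries and rose 4.64-fold (log2 difference 2.21, SE 0.07, edgeR adjusted p = 4.37e-15). Epha1 had 23.5, 23.9 and 24.2 CPM in VprBP-labelled and 3.06, 3.35 and 2.39 CPM in control-labelled libraries, a rise of 8.12-fold (log2 difference 3.02, SE 0.14, edgeR adjusted p = 1.23e-12). It shares 6.0% of its exonic bases with Zyx on the other strand. Epha7 was at 23.5, 20.2 and 22.6 CPM in VprBP-labelled and 7.27, 8.8 and 9.55 CPM in control-labelled libraries and rose 2.60-fold (log2 difference 1.38, SE 0.13, edgeR adjusted p = 1.57e-08). Epha5 had 9.22, 8.43 and 9.80 CPM in VprBP-labelled and 3.45, 4.27 and 4.66 CPM in control-labelled libraries, with a rise of 2.23-fold (log2 difference 1.16, SE 0.18, edgeR adjusted p = 1.44e-05). The groups lay apart for all 4 (background 77.2%).

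Epha2 (ENSMUSG00000006445.3, GRCm38 chromosome 4, 141301240 to 141329384, plus strand), a receptor that signals forward when ephrin-A1 binds it, was the most abundant Eph receptor of the control-labelled libraries and went the other way. It stood at 45.0, 41.6 and 37.6 CPM in VprBP-labelled and 109.9, 108 and 120.5 CPM in control-labelled libraries. It fell 2.73-fold (log2 difference -1.45, SE 0.07, edgeR adjusted p = 1.68e-12), with no overlap between the groups (background 77.2%). Epha4 (ENSMUSG00000026235.14, GRCm38 chromosome 1, 77367185 to 77515088, minus strand), which binds ephrins of both classes, had 4.04, 4.0 and 3.18 CPM in VprBP-labelled and 7.56, 8.61 and 6.92 CPM in control-labelled libraries and fell 2.06-fold (log2 difference -1.04, SE 0.19, edgeR adjusted p = 9.6e-05). Before division by length, the EphA receptors summed to 198 ± 7.74 CPM in VprBP-labelled and 157 ± 6.21 CPM in control-labelled libraries. The summed level per kb of the EphA receptors was 29.4 ± 1.22 CPM per kb in VprBP-labelled and 29.4 ± 1.23 CPM per kb in control-labelled libraries, while its makeup differed. The equal total thus holds on the scale per kb only. Epha2 alone made 8.86 ± 0.784 CPM per kb in VprBP-labelled and 24.2 ± 1.40 CPM per kb in control-labelled libraries, and Epha3 11.2 ± 0.653 CPM per kb in VprBP-labelled and 2.41 ± 0.0555 CPM per kb in control-labelled libraries.

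All 4 listed EphB receptor genes rose (background 37.9%). Ephb6, which lacks kinase activity, stood at 69.2, 67.5 and 67.9 CPM in VprBP-labelled and 6.41, 8.30 and 9.31 CPM in control-labelled libraries and rose 8.59-fold (log2 difference 3.10, SE 0.10, edgeR adjusted p = 8.1e-15). Ephb4, the receptor of ephrin-B2, was at 83.9, 76.3 and 74.1 CPM in VprBP-labelled and 58.5, 62.3 and 67.2 CPM in control-labelled libraries, a rise of 1.25-fold (log2 difference 0.32, SE 0.07, edgeR adjusted p = 0.000347). Ephb2 had 9.60, 8.70 and 7.46 CPM in VprBP-labelled and 0.287, 0.186 and 0.239 CPM in control-labelled libraries. It rose 34.6-fold (log2 difference 5.11, SE 0.31, edgeR adjusted p = 4.9e-11), on 13 counts over the control-labelled libraries, so its size is uncertain. Ephb3 was at 4.26, 4.16 and 3.75 CPM in VprBP-labelled and 0.479, 0 and 0.597 CPM in control-labelled libraries, a rise of 10.8-fold (log2 difference 3.44, SE 0.50, edgeR adjusted p = 5.82e-06) on 20 such counts. The EphB receptors summed to 36.2 ± 1.43 CPM per kb in VprBP-labelled and 15.7 ± 1.32 CPM per kb in control-labelled libraries. Of all Eph receptors by level per kb, Ephb6 held 27.6% ± 0.840 in VprBP-labelled and 4.69% ± 0.647 in control-labelled libraries, and Epha2 13.5% ± 0.687 in VprBP-labelled and 53.6% ± 1.2 in control-labelled libraries. Epha8, with 8 and 7 counts over the VprBP-labelled and control-labelled libraries, and Epha10, with 12 and 2, a ratio of scaled counts of 5.74 (1.28 to 52.8, 95% counting interval), were not tested.

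**Figure D5:**
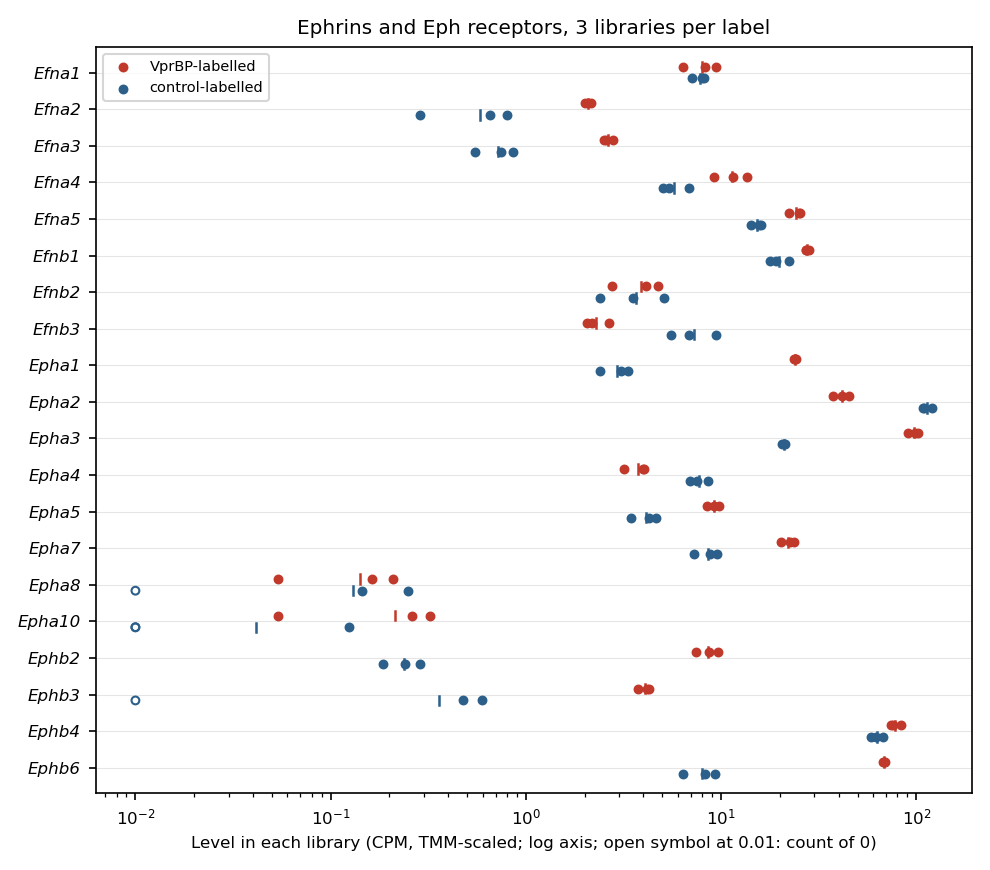
Level of each listed ephrin and Eph receptor in each library (x axis, CPM on a log axis; points are libraries, ticks are group means, open symbols counts of 0), VprBP-labelled above control-labelled. Epha2 lies lower in VprBP-labelled libraries (mean 41.4 against 113 CPM) and Epha3 higher (mean 97.1 against 20.9 CPM).

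In the SLIT and ROBO families, 3 of 4 tested genes rose (background 37.9%). Slit2, the ligand of Robo1 and Robo2, stood at 52.4, 51.4 and 55.0 CPM in VprBP-labelled and 22.6, 23.7 and 19.4 CPM in control-labelled libraries and rose 2.41-fold (log2 difference 1.27, SE 0.08, edgeR adjusted p = 1.38e-10). Robo1 had 216, 224 and 222 CPM in VprBP-labelled and 45.4, 41.3 and 39.4 CPM in control-labelled libraries. It rose 5.24-fold (log2 difference 2.39, SE 0.06, edgeR adjusted p = 1.29e-16). Robo2 was at 4.15, 6.43 and 6.41 CPM in VprBP-labelled and 0.287, 0.619 and 0.179 CPM in control-labelled libraries, a rise of 15.7-fold (log2 difference 3.97, SE 0.39, edgeR adjusted p = 4.3e-08) on 19 counts over the control-labelled libraries. All 3 were higher in every VprBP-labelled library (background 77.2% without overlap). Slit1 averaged 1.41 ± 0.977 CPM in VprBP-labelled and 0.955 ± 0.134 CPM in control-labelled libraries (SD, n = 3 each). The groups overlapped, and the difference of 0.55 (SE 0.50, edgeR adjusted p = 0.334) was not called. Robo3, which in mammals does not bind SLIT with high affinity, had 23 counts over the VprBP-labelled and 36 over the control-labelled libraries. Robo4, a receptor of endothelial cells, had 27 counts and 1, which puts the ratio of scaled counts at 25.8 (4.26 to 1057, 95% counting interval). Neither was tested. Robo1 made 13.4 ± 0.232 CPM per kb in VprBP-labelled and 2.55 ± 0.186 CPM per kb in control-labelled libraries, the most of the 6 genes in both groups.

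Textbook pairs of ligand and receptor can be read side by side by their log2 differences. For Sema7a and Plxnc1 these were 5.78 and 0.69. For Sema3f and Nrp2 they were 3.08 and 3.12, and for Sema3a and Nrp1 3.62 and 0.74. Sema3e and Plxnd1 stood at 2.53 and 1.84, Sema4d and Plxnb1 at 1.44 and 1.36, and Slit2 and Robo1 at 1.27 and 2.39. For Sema6a and Plxna4 the values were -0.09, not called, and 5.15. Sema4c and Sema4g stood at 2.29 and 2.26, and their receptor Plxnb2 at 0.21. For Sema3g and Nrp2 the values were 2.79 and 3.12, and for Sema6d and Plxna1 1.48 and 1.58. As every listed plexin and neuropilin rose, which pairs move together depends on the ligand chosen. How alike their sizes are depends on both the ligand and the receptor chosen. In the pairs Efnb2 with Ephb4 (0.07 and 0.32) and Efna1 with Epha2 (0.05 and -1.45) the ligand was not called. The receptor rose in the one pair and fell in the other.

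Some members are neighbours in the genome, and neighbours did not always move alike. On chromosome 9, Sema3b and Sema3f lie 72.3 kb apart, with log2 differences of -0.23 and 3.08. Efna1, Efna3 and Efna4 lie in a row on chromosome 3 with gaps of 32.8 and 10.4 kb, and differed by 0.05, 1.86 and 0.99. Robo1 and Robo2 lie 846 kb apart on chromosome 16 and both rose, by 2.39 and 3.97. On chromosome 5, Sema3a and Sema3e, 423 kb apart, also both rose, by 3.62 and 2.53. So did Ephb6 and Epha1, 738 kb apart on chromosome 6, by 3.1 and 3.02. Plxnb3 and Plxna3, 557 kb apart on chromosome X, rose by 5.37 and 1.96. Sema4a and Efna1, 811 kb apart on chromosome 3, stood at -1.13 and 0.05, the latter not called. These shared rises stand against 40 of the 49 tested guidance genes higher.

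Other genes of the pathways were described from lists of signalling partners, of netrins and related guidance families, and of co-receptors. Of 38 tested partners and effectors, 25 rose, 5 fell and 8 were not called, with a median log2 difference of 0.51. The share called was thus near that of all tested genes (75.0%), with more of the calls upwards. Srgap3, a GTPase-activating protein that binds ROBO receptors, had means of 23.9 ± 1.73 and 1.32 ± 0.263 CPM in VprBP-labelled and control-labelled libraries, and rose 17.8-fold. Dpysl3, of the family that carries the Sema3a signal to microtubules, was at 33.1 ± 2.01 and 2.12 ± 0.737 CPM and rose 15.8-fold, and the plexin-binding exchange factor Farp1 rose 2.68-fold. Abl2, a tyrosine kinase that acts on the cytoskeleton, fell 2.43-fold, and so did Tiam1, a Rac exchange factor at Eph receptors (1.65-fold), Rnd1, a GTPase that binds plexins (4.32-fold), Srgap1 (1.90-fold) and Rras (1.22-fold). Rras (edgeR adjusted p = 0.03) was not called with library size only or without VprBP replicate 2 or 3 or control replicate 3 (adjusted p = 0.107 to 0.19). Among those that rose, Kalrn (edgeR adjusted p = 0.0283) was not called with no filter, DESeq2 or the replicate block. Its call was also lost without VprBP replicate 1, 2 or 3 or control replicate 1 or 3. With the filter at a mean of 2 CPM, Kalrn was not tested.

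Of the 14 tested netrins and related guidance genes, 12 rose and 2 were not called, with a median log2 difference of 1.30 (background 37.9% higher). L1cam, an adhesion protein that joins Nrp1 in the Sema3a receptor, stood at 302 ± 13.5 and 30.8 ± 1.27 CPM in VprBP-labelled and control-labelled libraries, and rose 9.82-fold. Nrcam, its relative, rose 2.66-fold, the netrin Ntn4 5.15-fold, and the netrin receptor Neo1 1.66-fold. The 2 not called were Draxin and Unc5b. Of 14 tested co-receptors and other partners, 10 rose, 3 fell and 1 was not called, with a median of 1.28 (background 37.9% higher and 37.0% lower). Sdc3, a heparan sulphate carrier, and Dag1, which codes for the SLIT-binding dystroglycan, rose 20.3-fold and 3.48-fold. Itga1, a partner chain of integrin β1, rose 7.73-fold. Met, a receptor kinase that couples to class B plexins, stood at 1193 ± 33.9 and 419 ± 15.8 CPM, and Itgb1, the integrin β1 chain that binds Sema7a, at 1163 ± 56.5 and 509 ± 16.2 CPM. Both rose, 2.85-fold and 2.28-fold. The 3 that fell were the neuropilin-binding growth factors Pgf (3.29-fold) and Vegfa (1.39-fold), and Cd44 (1.36-fold). The adjusted p of each gene named from these lists as risen or fallen was below 0.05 by edgeR, over all tested genes.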

How the data were processed

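The authors deposited estimated counts, 1 value per gene and library, without scaling. Per the labels' protocols, RNeasy columns gave the RNA and a SMARTer kit for mRNA the libraries. Partek and mouse build mm10 (GRCm38) were used, per the submitters' processing notes. The sources used here give no aligner, counter or strand setting. From 62.1% to 64.5% of values were whole within 0.001. Others hold fractions, as shared reads give, so close paralogs are uncertain. No listed gene had fewer than 10 counts in all.

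After rounding, edgeR 4.0.16 under R 4.3.3 was used (quasi-likelihood F test, TMM, filterByExpr, group as the only term), with Benjamini-Hochberg adjustment over all 14641 tested genes and a threshold of 0.05. Differences are VprBP-labelled minus control-labelled. Levels per kb divide CPM by the union of GENCODE M21 exons. All 55 members matched by versioned ID. Their starts were those of GENCODE and their listed stops lay 1 base past its ends, which are printed. Other folds come from the fit, and ratios of counts, used for genes with 1 to 3 counts over a group, have 95% exact counting intervals.

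The members, lists and ligand-receptor pairs were chosen with earlier results of these data known, so a shared direction is no independent support. Values in every library are given for tested members averaging at least 5 CPM or differing by at least 3 on the log2 scale. From the other lists, up to 4 called genes with the smallest p were named, with those needed for a direction. Itgb1 was chosen after its values were seen. Promoter motifs, too, were picked with the data in view. Alternatives changed the scaling (DESeq2 size factors, upper quartile, library size only), the filter (none, or a mean of 2 CPM), the tool (DESeq2 1.42.0), the design (a replicate block) or the libraries (each left out in turn). No effect of pairing by the replicate numbers shared by the groups was seen (correlations of same-numbered deviations -0.032, 0.007 and -0.042). With 3 libraries a group, this cannot exclude a pairing.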

Additional observations from a re-analysis of the deposited data

How the results depend on the processing

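Across the 13 alternatives the guidance genes called higher numbered 37 to 42 and those called lower 5 or 6, against 40 and 5. These counts moved with the members tested. Without a filter all 55 were tested, with 42 higher and 6 lower, so some members given above as not tested were called there. At a mean of 2 CPM 45 were tested, with 37 higher and 5 lower. Leaving out a library gave 40 to 41 higher and 5 lower. Of 633 recomputed differences of tested members, 627 kept their direction and their side of the threshold. The other 6 turned sign, all in genes that were not called: Sema6a with library size only (0.03), Slit1 without VprBP replicate 2 (-0.09), Efna1 without VprBP replicate 3 (-0.07) or control replicate 3 (-0.02), and Efnb2 without either of these (-0.10 and -0.17). Leaving out 1 library gave -0.09 to 0.96 for Slit1, -0.07 to 0.19 for Efna1 and -0.17 to 0.38 for Efnb2. With library size only, the log2 differences of all tested genes shifted by a median of 0.12, which left Dcaf1 at -0.12, no longer called. The replicate block, where the numbers do not mark a stated pairing, gave 40 higher and 5 lower guidance genes, a Dcaf1 difference of -0.24, and 5395 higher and 5254 lower genes in all. Genes with few control-labelled counts (Plxnb3, Plxna4, Ephb2, Ephb3 and Robo2) have a clear direction but an uncertain size.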
